A study of Mus musculus with 12 samples.

Results

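The nuclear genes for subunits of the mitochondrial respiratory chain and ATP synthase were followed in mouse back skin. They were taken by symbol, as every row named Nduf (a, b, c, s or v series), Cox4 to Cox8, Uqcr, Atp5 or Sdha to Sdhd, which gave 86 of the 18505 genes in the expression table. The samples were 12 pieces of back skin from male BALB/c mice 5–6 weeks old, wild type in all groups, taken on day 10, with 4 samples a group. The control group had, according to the study's methods, been coated with petroleum jelly, although the sample labels name no vehicle for it, so that vehicle-treated and untreated skin cannot be told apart here. The IMQ + NS group had received imiquimod cream, which induces psoriasis-like lesions through Toll-like receptor signaling, followed by saline. The IMQ + BZLF group had received the same cream followed by Banzhilian formula, a mixture of plant materials and cicada slough applied to the skin. In the study's methods both treated groups were also covered with gauze and polyurethane film, and no cover is described for the controls. Effects of the cream and of this cover on differences from control cannot be told apart here. All backs had been shaved, and the dose of BZLF given to the sequenced mice is not given in the sources used here. Expression was RNA-seq abundance in FPKM, a measure that divides the fragments of a gene by its length and by the depth of the library, so that levels of different genes can be set side by side.

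The respiratory chain moves electrons from NADH (complex I) and succinate (complex II) through coenzyme Q, complex III and cytochrome c to oxygen at complex IV, and the proton gradient that complexes I, III and IV build drives ATP synthase. Each complex, other than complex II, is built from a few catalytic subunits, some of them encoded in mitochondrial DNA, and many small accessory subunits encoded in the nucleus. Several complex IV subunits exist as a common isoform and as an isoform of heart and skeletal muscle, the pairs Cox6a1 and Cox6a2, Cox7a2 and Cox7a1, and Cox8a and Cox8b. Mouse skin carries a thin sheet of striated muscle, the panniculus carnosus, below its fat layer, and a piece of full-thickness skin may hold more or less of it. Subunits encoded in mitochondrial DNA were not analysed here.

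One control stood apart before any subunit was considered. The summed FPKM of 26 skeletal muscle genes, such as the actin gene Acta1 and the creatine kinase gene Ckm, was 14607, 5987, 13255 and 13632 in control replicates 1 to 4, against 1162 to 2600.2 in the IMQ + NS samples and 1905 to 2558 in the IMQ + BZLF samples. Control replicate 2 thus held less than the other controls, and its 16 hair shaft and root sheath genes summed to 2258 FPKM against 32.5 to 89.7 in the other controls. Its 16 proliferation genes summed to 454 FPKM, against 99.1 to 122 in the other controls and 341 to 389 in the IMQ + NS samples. Transcripts of tissues that are not skin also varied from sample to sample. The sum of 13 genes of seminal vesicle, pancreas and liver was 123, 170, 131 and 14.9 FPKM in control replicates 1 to 4, 109, 165, 121 and 15.7 FPKM in IMQ + BZLF replicates 1 to 4 and 26.3, 36.3, 138 and 4.20 FPKM in IMQ + NS replicates 1 to 4. The sums thus had the same order by replicate number in the control and IMQ + BZLF groups, and their part in the results was not tested. The summed FPKM of all genes was 444660 to 506622 a sample and was higher in all 8 IMQ-treated samples than in the controls. The number of fragments behind a value is unknown, so precision is given by the spread of the 4 replicates, and the p-values measure the spread between these samples.

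All 86 genes passed the filter of a mean FPKM of at least 0.1 that left 15288 genes for testing. Their levels were high, with a median over genes of 129 FPKM (mean of the 12 samples) against 6.63 FPKM over all genes tested, and 81 of the 86 lay above 20 FPKM. The highest was Atp5b, the catalytic beta subunit of ATP synthase, at 614 FPKM. The 5 genes below 10 FPKM were Cox4i2, Cox6b2, Ndufb4b, Ndufb4c and Ndufs6b. The last 3 are extra copies of complex I genes, and reads shared with Ndufb4 and Ndufs6 make their values uncertain. Ndufb4c and Ndufs6b are annotated as processed pseudogenes in GENCODE M21. They are counted here by symbol, among the 86 genes and the 39 of complex I. Ndufb4c was the lowest at 0.565 FPKM. Altogether the 86 genes took 3.45 to 3.90% of the FPKM of a control sample, 2.54 to 2.80% of an IMQ + NS sample and 2.47 to 2.67% of an IMQ + BZLF sample.

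In psoriasis-like skin most subunit genes were lower than in control skin, and none was higher. In IMQ + NS against control samples 51 of the 86 genes fell and 0 rose at an adjusted p below 0.05 (limma on log2(FPKM + 0.1), Benjamini-Hochberg adjustment over all genes tested), whereas 27.1% of all genes tested fell and 29.0% rose. At an unadjusted p below 0.05 the count was 53, all of them lower. Over all 15288 genes tested it was 9421, in either direction. The fold change was negative for 78 of the 86 genes and for 7111 of the 15288 genes tested. The median log2 fold change was -0.27, against 0.05 over all genes tested. Only 4 genes fell more than 2-fold, compared with 11.0% of all genes tested: the muscle isoforms Cox6a2, Cox7a1 and Cox8b, and Ndufa4l2. The lowest control lay above the highest IMQ + NS sample for 51 genes, a separation that 25.7% of all genes tested showed. In bulk tissue, fewer cells of a type and less RNA per cell cannot be told apart. Without control replicate 2 the count was 54 lower, and Ndufc2 and Cox6a1 passed as higher. In that fit 4425 of all 15288 genes tested were lower and 6036 higher, against 4142 and 4427 with all samples.

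**Figure D1:**
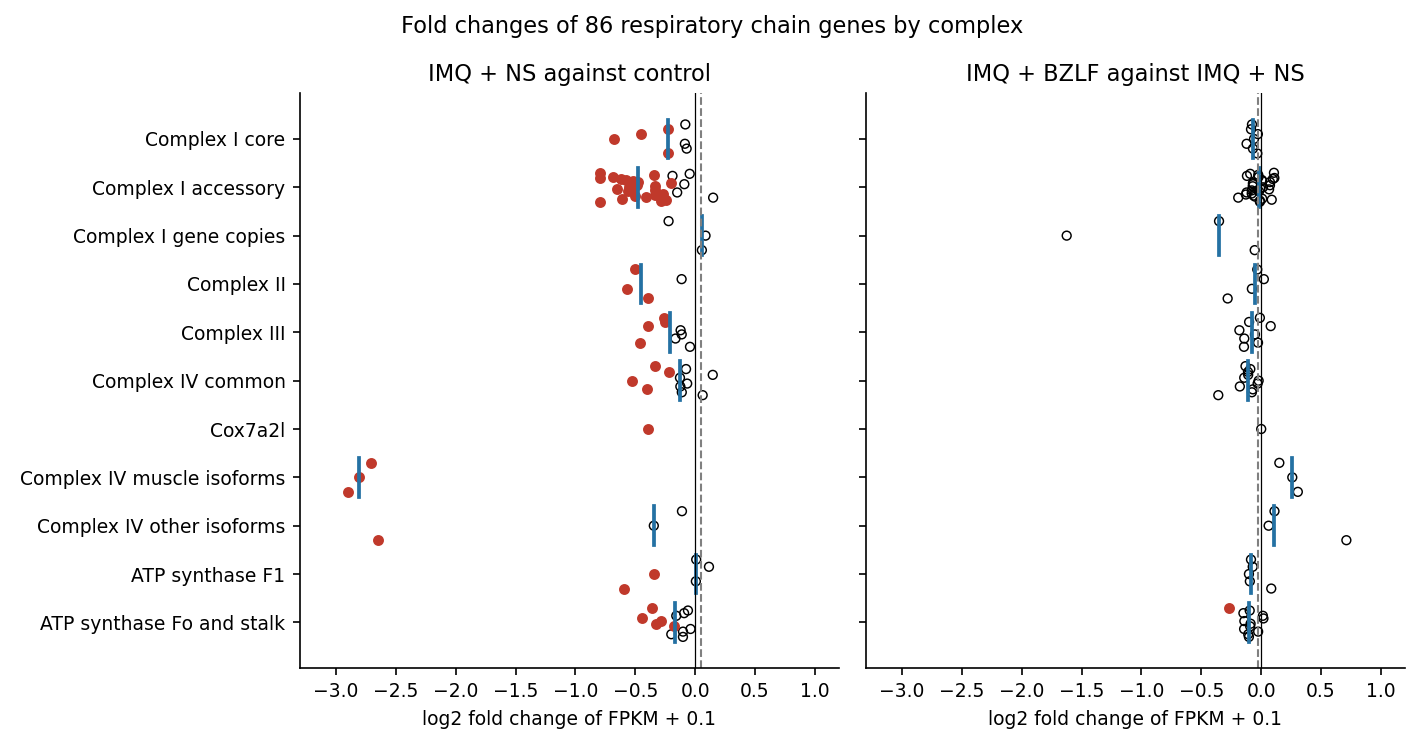
Log2 fold changes (x axis, on FPKM + 0.1) of the 86 genes, 1 point a gene, in rows by complex, for IMQ + NS against control (left) and IMQ + BZLF against IMQ + NS (right); filled points passed an adjusted p of 0.05, blue lines are row medians and the dashed line is the median of all genes tested. On the left most rows lie below 0 with the muscle isoforms far to the left at -2.71 to -2.90, and on the right 1 point is filled.

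Complex I, the entry point for NADH and the complex with the most members, had 28 of 39 that fell, with a median log2 fold change of -0.34. This share was 71.8%, against 75.0% in complex II and 27.1% of all genes tested. The 7 core subunits of complex I, which carry the flavin, the iron-sulfur clusters and the quinone site, had 4 that fell and a median of -0.23. The 29 accessory subunits of complex I had 24 that fell and a median of -0.48. The difference between the 2 kinds of subunit was not tested. Ndufs7 stood at 103, 76.2, 95.8 and 101 FPKM in the controls and 53.5, 64.7, 57.8 and 57.9 FPKM after IMQ + NS. This core subunit, which holds the iron-sulfur cluster next to the quinone site, had a log2 fold change of -0.67 (SE 0.11, adjusted p = 0.000904), and its groups did not overlap. Ndufv1, the subunit that binds NADH and flavin, ranged from 82.6 to 91.1 FPKM in the controls and from 76.7 to 86.8 FPKM after IMQ + NS, overlapping groups with a log2 fold change of -0.07 (SE 0.07, adjusted p = 0.414).

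Among the accessory subunits Ndufa2, a small protein of the matrix arm, had the lowest fold change. Ndufa2 stood at 219, 166, 200.2 and 189 FPKM in the controls and 107, 122, 112 and 103 FPKM after IMQ + NS, a log2 fold change of -0.80 (SE 0.10, adjusted p = 0.000213), with no overlap. Ndufb9, a membrane-arm subunit and the accessory gene with the highest level, fell from 323 ± 26.8 to 227 ± 16.8 FPKM, a log2 fold change of -0.51 (SE 0.08, adjusted p = 0.00107). Ndufc2, another membrane-arm subunit, lay at the other end of the order. Ndufc2 stood at 135, 156, 117 and 114 FPKM in the controls and 143, 153, 146 and 134 FPKM after IMQ + NS. Its groups overlapped, with a log2 fold change of 0.15 (SE 0.11, adjusted p = 0.251), and control replicate 2 was the highest of all 8 samples. Without that control the log2 fold change was 0.24 with an adjusted p of 0.023. The 3 extra copies Ndufb4b, Ndufb4c and Ndufs6b had log2 fold changes of -0.22, 0.09 and 0.06, and none passed the test.

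Complex II, succinate dehydrogenase, takes part both in the citrate cycle and in the chain and is encoded wholly in the nucleus. Of its 4 subunits 3 fell. Sdha stood at 113, 88.6, 94.0 and 105 FPKM in the controls and 64.8, 71.2, 71.9 and 73.9 FPKM after IMQ + NS, and this flavoprotein had a log2 fold change of -0.50 (SE 0.09, adjusted p = 0.00167). Sdhc measured 139, 118, 118 and 121 FPKM in the controls and 82.6, 85.4, 80.9 and 84.7 FPKM after IMQ + NS, and this membrane anchor had a log2 fold change of -0.57 (SE 0.07, adjusted p = 0.000265). Sdhd measured 109.7, 101, 95.2 and 102 FPKM in the controls and 68.6, 79.9, 82.5 and 79.7 FPKM after IMQ + NS, and this other anchor had a log2 fold change of -0.39 (SE 0.08, adjusted p = 0.00302). In all 3 genes every control lay above every IMQ + NS sample. Sdhb, the iron-sulfur subunit, did not pass the test. Sdhb stood at 167, 149, 146 and 152 FPKM in the controls and 133, 153, 131 and 152 FPKM after IMQ + NS, so that the highest IMQ + NS sample lay above 3 of the controls, with a log2 fold change of -0.11 (SE 0.08, adjusted p = 0.256).

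In complex III, cytochrome bc1, 4 of the 8 subunits taken by symbol fell and the median log2 fold change was -0.21. Its subunit cytochrome c1, encoded by Cyc1, does not match those symbols and is counted below with cytochrome c and coenzyme Q. The hinge protein Uqcrh, which sits at the docking site of cytochrome c, had both the highest level and the lowest fold change. Uqcrh stood at 430.3, 370.0, 412 and 395 FPKM in the controls and 281, 314, 289 and 287 FPKM after IMQ + NS, a log2 fold change of -0.46 (SE 0.07, adjusted p = 0.000743), and the groups did not overlap. Uqcrq, a small membrane subunit, was at the other end. Uqcrq stood at 153, 131, 125 and 129 FPKM in the controls and 119, 145, 127 and 131 FPKM after IMQ + NS, overlapping groups with a log2 fold change of -0.04 (SE 0.09, adjusted p = 0.703).

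The 11 common subunits of complex IV, cytochrome c oxidase, had 4 that fell, 36.4% of them against 27.1% of all genes tested, and a median log2 fold change of -0.12. No difference between complexes was tested. Cox6c, a small subunit of the inner membrane, had the highest level and the lowest fold change among them. Cox6c stood at 711, 629.8, 683 and 689.8 FPKM in the controls and 465, 519, 496 and 406 FPKM after IMQ + NS, a log2 fold change of -0.53 (SE 0.09, adjusted p = 0.00111), with no overlap. The common isoform Cox6a1 was at the other end, at 376, 371, 336 and 331 FPKM in the controls and 372, 391, 394 and 408 FPKM after IMQ + NS. Its groups overlapped through control replicates 1 and 2, with a log2 fold change of 0.15 (SE 0.07, adjusted p = 0.0943), and without control replicate 2 the adjusted p was 0.0436. Cox7a2l, a factor that links complexes III and IV into supercomplexes, fell with a log2 fold change of -0.39 (SE 0.07, adjusted p = 0.00205).

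ATP synthase had 7 of 17 members that fell, 41.2% of them against 27.1% of all genes tested, and a median log2 fold change of -0.16. The members of the F1 head did not move as a block. Atp5b, the catalytic beta subunit, was at 623, 629.8, 525 and 590.1 FPKM in the controls and 609, 650.0, 635 and 668 FPKM after IMQ + NS, with a log2 fold change of 0.12 (SE 0.08, adjusted p = 0.218). The direction for Atp5b turned negative when samples were rescaled to equal sums or quantile normalized. Atp5e stood at 806, 606, 675 and 664 FPKM in the controls and 436, 471, 433 and 475 FPKM after IMQ + NS. Atp5e, the epsilon subunit of the central stalk, fell with a log2 fold change of -0.59 (SE 0.09, adjusted p = 0.000825), and every control was above every IMQ + NS sample.

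Of the 12 genes of the membrane part and stalks of ATP synthase 5 fell, 41.7% against 27.1% of all genes tested. Atp5j, coupling factor 6 of the peripheral stalk, had the lowest fold change. Atp5j stood at 137, 112, 119.9 and 123 FPKM in the controls and 84.1, 93.9, 91.4 and 90.9 FPKM after IMQ + NS, a log2 fold change of -0.45 (SE 0.08, adjusted p = 0.00137). Atp5j2, the f subunit of the membrane part and the gene of this group with the highest level, fell from 493 ± 37.1 to 406 ± 37.6 FPKM (mean ± SD, n = 4), a log2 fold change of -0.28 (SE 0.09, adjusted p = 0.0222), and its adjusted p was 0.0609 when control replicate 1 was left out, and 0.0625 and 0.062 when IMQ + NS replicate 1 or 4 was. Atp5md, a small subunit linked to dimers of the enzyme, had overlapping groups, 316, 327, 272 and 291 FPKM in the controls and 286, 321, 308 and 262 FPKM after IMQ + NS, and a log2 fold change of -0.04 (SE 0.09, adjusted p = 0.735).

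**Figure D2:**
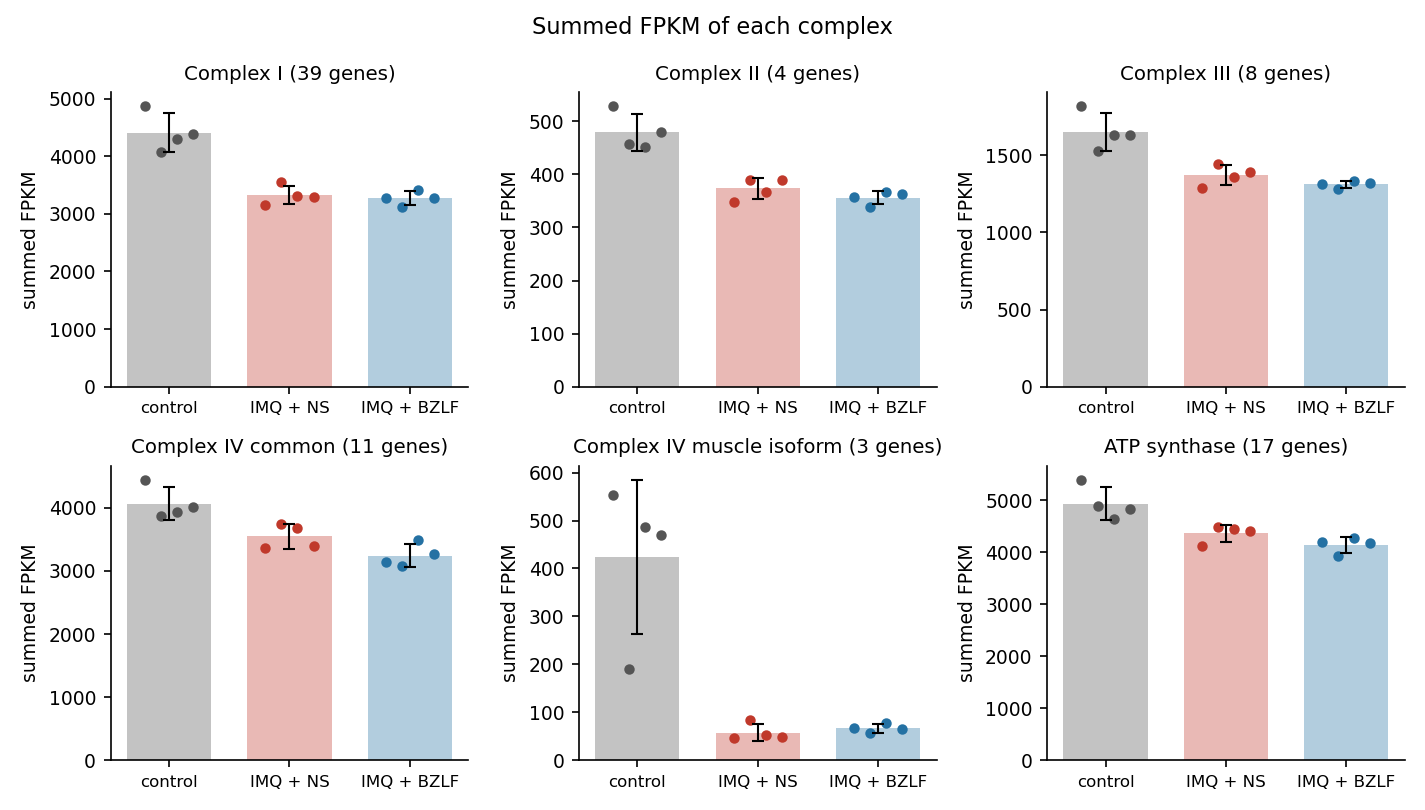
Summed FPKM (y axis, from 0) of the genes of each complex by group; points are samples, bars are means and error bars SD of 4 samples. Complex I fell from a mean of 4410 to 3327 FPKM and the muscle isoforms from 425 to 57.4 FPKM, both in IMQ + NS samples. In every panel every control lies above every treated sample.

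The summed FPKM of a complex showed the same order. Complex I summed to 4079 to 4873 FPKM in the controls, 3159 to 3546 in the IMQ + NS samples and 3121 to 3417 in the IMQ + BZLF samples. The sums of complex II were 453 to 529, 349 to 389.8 and 338 to 366 FPKM, and those of complex III 1527 to 1820.2, 1289 to 1443 and 1283 to 1332 FPKM. For ATP synthase they were 4646 to 5403, 4126 to 4497 and 3931 to 4283 FPKM. The common subunits of complex IV summed to 3864 to 4449, 3361 to 3750 and 3081 to 3488 FPKM. Its muscle isoforms summed to 189 to 554, 46.0 to 84.4 and 56.0 to 78.2 FPKM. In each of these sets every control sum lay above every sum of the treated samples.

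The muscle isoforms of complex IV fell far more than any common subunit. Cox6a2 was measured at 165, 58.3, 133 and 134 FPKM in control replicates 1 to 4, 15.1, 22.0, 15.0 and 18.8 FPKM in the IMQ + NS samples and 21.5, 17.5, 19.0 and 19.9 FPKM in the IMQ + BZLF samples. Control replicate 2 was the lowest control for this gene and still lay above all 8 treated samples. Cox6a2 fell in IMQ + NS against control samples with a log2 fold change of -2.71 (SE 0.30, adjusted p = 0.000141). Cox7a1 was measured at 91.0, 35.5, 84.1 and 82.4 FPKM in control replicates 1 to 4, 7.79, 16.5, 9.62 and 7.15 FPKM in the IMQ + NS samples and 12.9, 9.45, 14.1 and 10.7 FPKM in the IMQ + BZLF samples. The order of the samples was the same kind, with control replicate 2 between the other controls and the treated samples, and the test gave a log2 fold change of -2.81 (SE 0.35, adjusted p = 0.000253). Cox8b was measured at 298, 95.6, 269 and 253 FPKM in control replicates 1 to 4, 23.2, 45.9, 27.0 and 21.6 FPKM in the IMQ + NS samples and 33.1, 29.0, 45.1 and 33.5 FPKM in the IMQ + BZLF samples. Cox8b had a log2 fold change of -2.90 (SE 0.38, adjusted p = 0.000327), and its groups did not overlap. Over all settings tried, the log2 fold changes of these 3 genes ranged from -3.27 to -2.53.

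**Figure D3:**
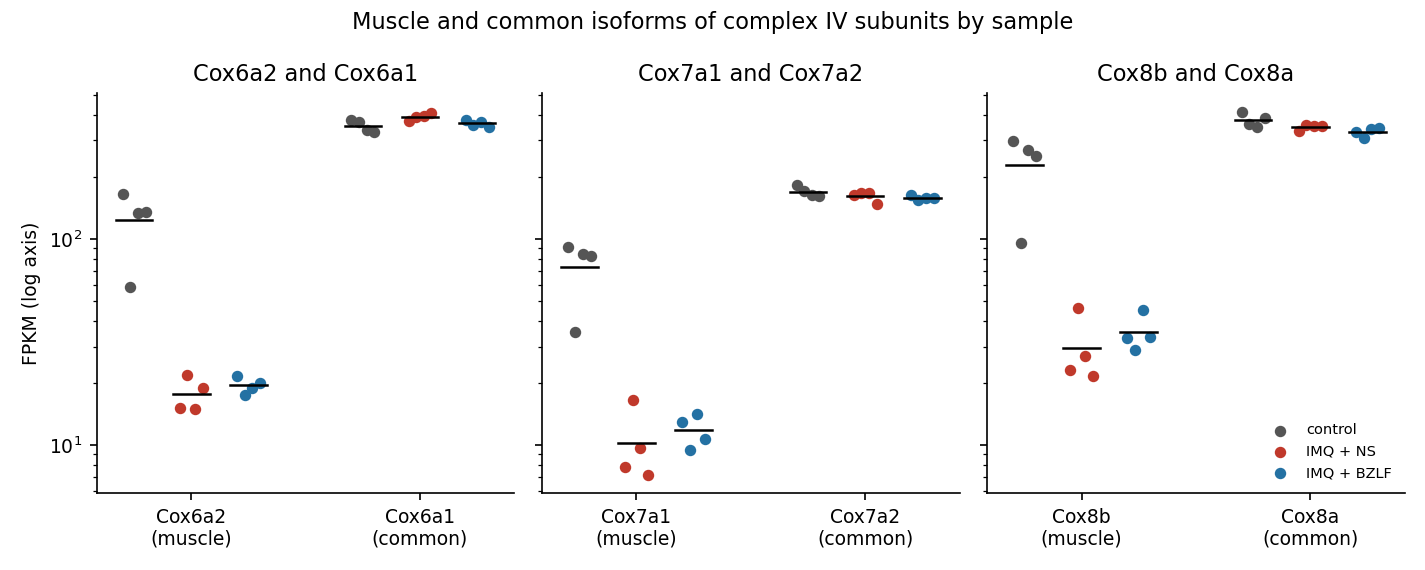
FPKM (log axis) of the muscle isoform and the common isoform of 3 complex IV subunits in each sample, colored by group, with horizontal lines at group means. The 3 muscle isoforms separate the controls from the treated samples, with control replicate 2 lowest among the controls, and the common isoforms lie close together in all 3 groups.

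Because FPKM is scaled by length, the muscle isoform can be given as a share of its pair. Cox6a2 made up 25.3% ± 7.88 (SD, n = 4) of Cox6a2 and Cox6a1 together in the controls, 4.32% ± 0.736 after IMQ + NS and 5.09% ± 0.365 after IMQ + BZLF. Cox7a1 made up 29.6% ± 8.30 of its pair with Cox7a2 in the controls, 5.90% ± 2.12 after IMQ + NS and 6.92% ± 1.08 after IMQ + BZLF. Cox8b was 36.5% ± 10.5, 7.70% ± 2.53 and 9.58% ± 1.43 of its pair with Cox8a. In all 3 pairs each control share was above each treated share, and an exact permutation test (two-sided, 4 against 4 samples) gave p = 0.0286 for both treated groups against control, the smallest p it allows. Adjusted over the 12 comparisons made, that p was 0.0571. Between IMQ + BZLF and IMQ + NS samples the shares differed by 0.773 to 1.88 percentage points, with exact permutation p from 0.114 to 0.371.

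The isoforms of other tissues did not move together. Ndufa4l2, a relative of the complex IV subunit Ndufa4 that is known as a target of hypoxia signaling, stood close to the muscle isoforms in size. Ndufa4l2 was measured at 141, 101, 129 and 147 FPKM in control replicates 1 to 4, 17.3, 23.0, 23.1 and 19.0 FPKM in the IMQ + NS samples and 25.5, 45.0, 44.4 and 24.8 FPKM in the IMQ + BZLF samples. Every control lay above every treated sample, and every IMQ + BZLF sample lay above every IMQ + NS sample. Its fall in IMQ + NS skin was a log2 fold change of -2.65 (SE 0.14, adjusted p = 2.76e-06). Control replicate 2 was the lowest control for this gene as well. Cox4i2, a lung and hypoxia isoform, ranged over 5.53 to 9.29 FPKM in the controls and 5.71 to 7.65 FPKM after IMQ + NS, with a log2 fold change of -0.11 (SE 0.17, adjusted p = 0.606). Cox6b2, a testis isoform, had a log2 fold change of -0.34 (SE 0.19, adjusted p = 0.146). Neither passed the test, and Cox7b2 and Cox8c were not analysed here.

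The 3 muscle isoforms all lie on mouse chromosome 7, at chr7:128205435-128206387 (minus strand) for Cox6a2, chr7:30184144-30186078 (plus strand) for Cox7a1 and chr7:140898945-140900446 (minus strand) for Cox8b, and Ndufa4l2 lies at chr10:127514967-127517154 (plus strand), in the GENCODE M21 annotation of GRCm38. Promoters of 69 of the 86 genes were found in RefSeq (GRCm38.p6), 74 promoters in all, each read as the 250 bases before the start. CGCATGC, the core of the motif of NRF1, a regulator of nuclear genes for mitochondrial proteins, was present on either strand in 12.2% of them and in 3.02% of all 32851 promoters of that length. The ETS motif CCGGAAG, bound among others by GABP, was present in 16.2% against 6.91% of all promoters. The E-box CAGCTG of muscle regulators was present in 8.11% against 13.0%, and TATAAA (plus strand) in 2.70% against 7.59%. The NRF1 core was in 6 of 46 promoters of genes that fell in IMQ + NS skin and in 3 of 28 of the others. The promoters of 2 muscle isoforms and of 2 members that carry both the NRF1 core and the ETS motif, the common isoform Cox6a1 and Atp5l, are shown for contrast, with matches to the 4 motifs in capitals.
Cox7a1, chr7:30183921-30184170, plus strand: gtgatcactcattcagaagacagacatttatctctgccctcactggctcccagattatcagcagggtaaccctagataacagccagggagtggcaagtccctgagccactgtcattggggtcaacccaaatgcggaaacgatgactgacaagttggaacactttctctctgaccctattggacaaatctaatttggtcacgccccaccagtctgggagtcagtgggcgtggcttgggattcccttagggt
Cox8b, chr7:140900447-140900696, minus strand: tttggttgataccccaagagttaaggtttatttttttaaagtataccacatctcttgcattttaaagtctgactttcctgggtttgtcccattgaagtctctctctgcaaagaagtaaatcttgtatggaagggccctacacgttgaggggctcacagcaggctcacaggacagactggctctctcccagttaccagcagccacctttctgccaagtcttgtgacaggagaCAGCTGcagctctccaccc
Cox6a1, chr5:115348959-115349208, minus strand: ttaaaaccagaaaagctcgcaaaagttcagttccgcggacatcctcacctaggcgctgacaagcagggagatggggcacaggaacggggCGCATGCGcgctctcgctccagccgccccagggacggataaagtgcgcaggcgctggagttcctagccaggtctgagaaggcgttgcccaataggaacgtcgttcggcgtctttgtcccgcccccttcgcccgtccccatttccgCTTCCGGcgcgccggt
Atp5l, chr9:44920743-44920992, minus strand: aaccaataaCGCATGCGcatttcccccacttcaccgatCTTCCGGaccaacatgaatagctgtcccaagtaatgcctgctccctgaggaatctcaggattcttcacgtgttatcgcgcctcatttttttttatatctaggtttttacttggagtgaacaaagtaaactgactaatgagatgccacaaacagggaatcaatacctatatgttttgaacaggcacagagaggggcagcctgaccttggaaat
Cox7a1 held none of the 4 motifs in this window, Cox8b held 1 E-box, and in Cox6a1 and Atp5l the NRF1 core was matched on both strands at overlapping bases where its letters read alike in either direction. Of the latter pair, Atp5l, a subunit of the membrane part of ATP synthase, fell to 0.886 of control in IMQ + NS skin (adjusted p = 0.0411). Cox6a1 was at 1.11 times control without passing the test (adjusted p = 0.0943).

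Several lists of marker genes of other cell types were lower in the same samples as the subunit genes, and others were higher. Over all genes tested 27.1% fell and 29.0% rose in IMQ + NS against control samples. All 26 skeletal muscle genes fell more than 2-fold in IMQ + NS against control samples, with a median log2 fold change of -2.69. Of 13 adipocyte genes 12 fell, and their summed FPKM was 6433 to 14740.1 in the controls, 2804 to 4461 in the IMQ + NS samples and 3909 to 4637 in the IMQ + BZLF samples. Of 11 sebaceous gland genes 8 fell and 2 rose, and their sums were 1173 to 1527, 464 to 843 and 628 to 957 FPKM. Of 10 macrophage genes tested 7 fell and 1 rose, and the sums of the list were 908 to 1292, 638 to 899 and 420.4 to 625 FPKM. In the muscle, adipocyte, sebaceous gland and macrophage lists every control sum lay above every treated sum, as it did for the subunit genes. Of 8 brown and beige adipocyte genes 5 fell and 1 rose, while 2 of 9 slow and cardiac muscle genes and 3 of 9 T cell genes rose and 1 of each fell. Keratinocyte genes went the other way, with 8 of 10 higher and sums of 1980.2 to 3095, 4981 to 7830.3 and 2317 to 3860.4 FPKM. So did proliferation genes, with 13 of 16 higher although control replicate 2 had the highest sum of all 12 samples, neutrophil genes, with 14 of 17 higher, and hair shaft and root sheath genes, with 16 of 16 higher. All muscle, adipocyte and keratinocyte markers were above 0 in each sample. The labelled tissue, skin, therefore held keratinocyte, fat, hair and muscle transcripts in all groups.

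The members other than the muscle isoforms were also read sample by sample. These 83 genes summed to 17434, 15129.7, 15330.0 and 15712 FPKM in control replicates 1 to 4, 12465, 13836, 13365 and 13053 FPKM in the IMQ + NS samples and 12458, 11972, 13114 and 12619.6 FPKM in the IMQ + BZLF samples. Control replicate 2, with 5987 FPKM of muscle transcripts against 13255 to 14607 in the other controls, had the lowest sum of the 4 controls, and that sum lay above all treated samples. It was the lowest control for 40 of the 83 genes, and control replicates 1, 3 and 4 were the lowest for 1, 29 and 13. Its median log2 difference from the mean of the other controls was -0.10 over the 83 genes, the most negative of the controls, and 62 of the 83 lay above every IMQ + NS sample. For control replicates 1, 3 and 4 those counts were 71, 53 and 58. The counts for single controls were not made over all genes tested, so they have no share of all genes beside them. Control replicate 1 was the highest control for 69 of the 83 genes, with a median log2 difference of 0.19 from the others. With the 3 muscle isoforms left out, 48 of 83 genes fell, with a median log2 fold change of -0.26. The part of muscle, fat, sebaceous gland, macrophages, hair or epidermis in this fall was not tested.

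**Figure D4:**
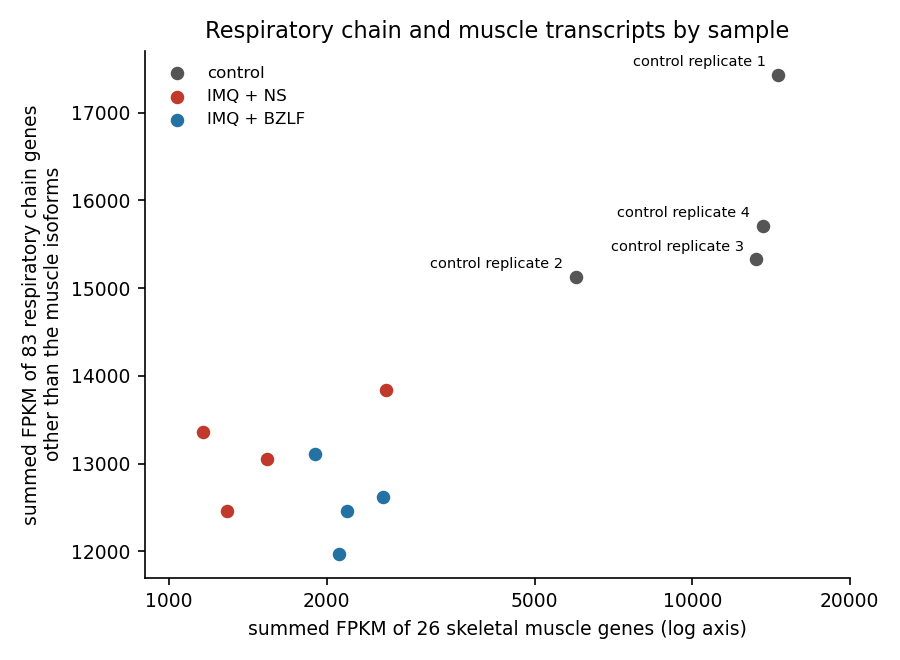
Summed FPKM of the 83 subunit genes other than the muscle isoforms (y axis, not from 0) against the summed FPKM of 26 skeletal muscle genes (x axis, log), 1 point a sample, colored by group, with the controls named. The 4 controls lie between 15129.7 and 17434 FPKM and the treated samples between 11972 and 13836 FPKM, and control replicate 2 lies to the left of the other controls and has the lowest sum among them.

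The subunit transcripts were short, with a median length of 648 bases over the 80 members found in GENCODE M21, against 2123 bases over 14782 genes tested. In IMQ + NS against control samples the 62 members shorter than 1000 bases had a median log2 fold change of -0.33 and the 18 longer members -0.20. With the muscle isoforms left out, the median of the remaining 59 short members was -0.29. Over all genes tested the medians were -0.04 for 2735 short genes and 0.08 for 12047 longer genes. In IMQ + BZLF against control samples, without the muscle isoforms, the medians were -0.34 for short and -0.31 for longer members. This split was chosen after the values were seen.

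Other mitochondrial genes are given by list, beside the 27.1% lower and 29.0% higher of all genes tested in IMQ + NS against control samples, and the lists were not tested against each other. Of 44 assembly factors, which put the complexes together, 22 fell and 2 rose, with a median log2 fold change of -0.27. Uqcc2, which assembles complex III, fell from 143 ± 12.1 to 81.3 ± 5.68 FPKM (mean ± SD, n = 4), a log2 fold change of -0.81 (SE 0.08, adjusted p = 0.0001), whereas Acad9, which assembles complex I and oxidizes fatty acids, rose by 0.47 (SE 0.09, adjusted p = 0.00261). Of 14 citrate cycle genes 7 fell and 0 rose, with a median of -0.26. Cs, citrate synthase, was at 129 ± 7.51 FPKM (mean ± SD, n = 4) in the controls and 132 ± 7.64 FPKM after IMQ + NS. Of 19 genes of mitochondrial fatty acid oxidation 12 fell (63.2%) and 1 rose, with a median of -0.36.

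Of 16 genes for cytochrome c and coenzyme Q 5 fell, a share of 31.2% that is near that of all genes, and 2 rose. The 16 include Cyc1, cytochrome c1 of complex III, with a log2 fold change of 0.06 (SE 0.07, adjusted p = 0.489). Coq9 and Coq10a, both needed for coenzyme Q, fell with log2 fold changes of -1.06 (SE 0.16, adjusted p = 0.00062) and -1.61 (SE 0.22, adjusted p = 0.00036), while the cytochrome c gene Cycs was at 29.2 ± 4.04 FPKM in the controls and 28.5 ± 2.27 FPKM after IMQ + NS. The mitochondrial ribosome, which translates the subunits encoded in mitochondrial DNA, had 13 of 78 genes lower (16.7%) and 7 higher (8.97%), both below the shares of all genes, and a median of 0.02. The 15 regulators of mitochondrial biogenesis tested had 6 higher (40.0%) and 0 lower, with a median of 0.28. Among these Myc rose by 0.55 (SE 0.15, adjusted p = 0.0141), and Tfam, which packages and transcribes mitochondrial DNA, had a log2 fold change of 0.19 (SE 0.11, adjusted p = 0.186).

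Treatment with BZLF left the subunit genes near their level in psoriasis-like skin. Compared with the IMQ + NS samples, 1 of 86 genes fell in the IMQ + BZLF samples and 0 rose, where 5.17% of all genes tested fell and 1.28% rose. An unadjusted p below 0.05 was found for 9 members and for 3475 of the 15288 genes tested. The median log2 fold change was -0.07, against -0.02 over all genes tested. Of the 86 fold changes 63 were negative, against 8415 of 15288 over all genes tested. With median ratio scaling 46 of the 86 were negative, and with quantile normalization 45. For 84 of the 86 genes the 95% interval of the difference lay within 2-fold in either direction, and for 79 within 0.5 on the log2 scale. The exceptions to the first were Ndufa4l2 and the low copy Ndufb4c. By overlap, 5 genes were lower without overlap, against 10.9% of all genes tested, and 1 higher, against 4.24%.

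The gene that passed was Atp5g1, 1 of 3 genes for the c subunit that forms the rotor ring of ATP synthase. Atp5g1 was measured at 85.2, 69.3, 76.1 and 75.8 FPKM in control replicates 1 to 4, 56.5, 59.5, 61.7 and 60.5 FPKM in the IMQ + NS samples and 50.2, 45.8, 50.8 and 50.9 FPKM in the IMQ + BZLF samples. The 3 groups did not overlap, with control above IMQ + NS and IMQ + NS above IMQ + BZLF. In IMQ + BZLF against IMQ + NS samples it had a log2 fold change of -0.27 (SE 0.05, adjusted p = 0.0211), and its adjusted p was 0.0209 to 0.0687 over the settings tried. Without IMQ + NS replicate 2, 3 or 4 it was 0.0521, 0.0687 and 0.0634. Against control, IMQ + NS samples had a log2 fold change of -0.36 (SE 0.08, adjusted p = 0.00395).

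The muscle isoforms were slightly higher in IMQ + BZLF than in IMQ + NS samples, within the spread of the replicates. The log2 fold changes were 0.15 (SE 0.13, adjusted p = 0.522) for Cox6a2, 0.26 (SE 0.25, adjusted p = 0.581) for Cox7a1 and 0.31 (SE 0.23, adjusted p = 0.474) for Cox8b. Ndufa4l2 had a larger difference, a log2 fold change of 0.71 (SE 0.22, adjusted p = 0.088), which did not pass the test although the groups did not overlap. The skeletal muscle list had 1 of 26 genes higher in this comparison and the adipocyte list 0 of 13. Of the fatty acid oxidation genes 3 of 19 rose and 0 fell, and of the assembly factors, citrate cycle genes, cytochrome c and coenzyme Q genes, biogenesis regulators and mitochondrial ribosome genes 0 passed in either direction. In the same samples 16 of 17 neutrophil genes and 6 of 10 keratinocyte genes were lower.

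**Figure D5:**
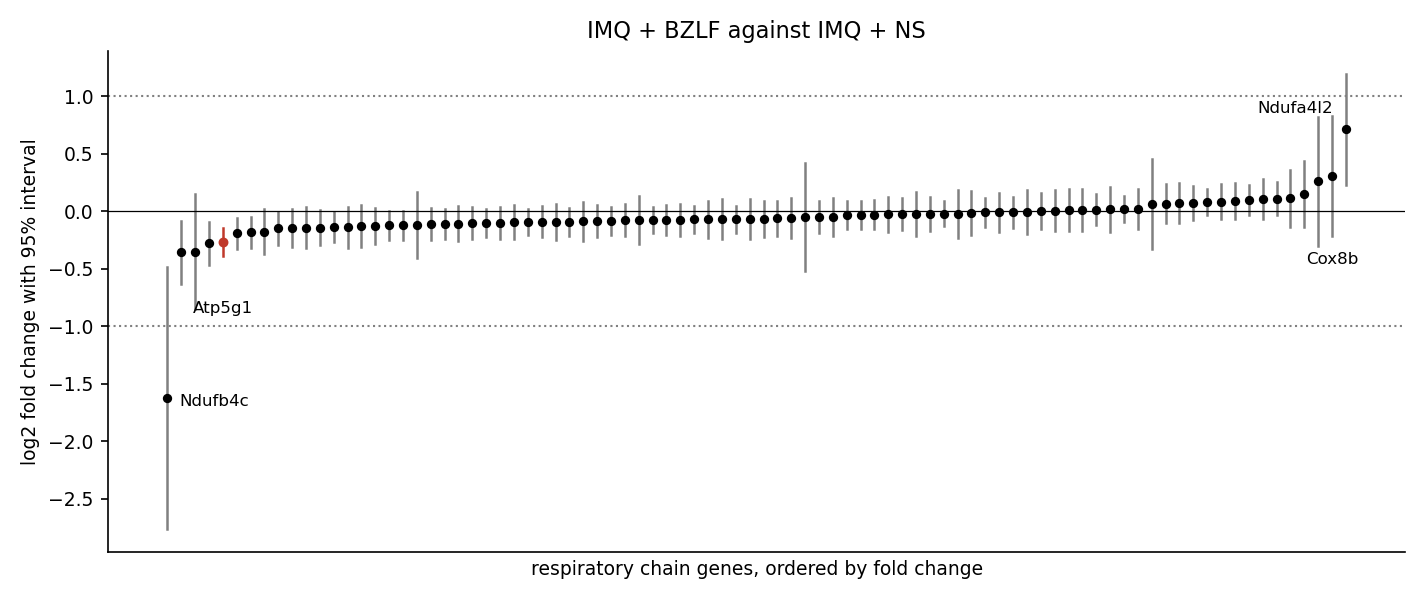
Log2 fold change in IMQ + BZLF against IMQ + NS samples (y axis) with its 95% interval for each of the 86 genes, ordered from lowest to highest; dotted lines mark 2-fold. Atp5g1, in red, passed the test, and the intervals of Ndufb4c and Ndufa4l2 cross the 2-fold lines.

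Against control, the IMQ + BZLF samples gave 60 of 86 genes lower and 0 higher, with 29.2% of all genes tested lower and 23.8% higher. The median log2 fold change was -0.35, against -0.02 over all genes tested. More than 2-fold lower were 5 genes, the 4 named for IMQ + NS skin and Ndufb4c, compared with 10.1% of all genes tested. Ndufb4c is annotated as a pseudogene and was the lowest of the 86, with a mean of 0.565 FPKM. By complex, 31 of 39 complex I genes, 3 of 4 in complex II, 6 of 8 in complex III, 6 of 11 common subunits of complex IV and 9 of 17 in ATP synthase were lower. This comparison uses the same controls as the comparison for IMQ + NS, so the 2 are not independent. Side by side, the log2 fold changes against control were -2.90 after IMQ + NS and -2.59 after IMQ + BZLF for Cox8b, -2.65 and -1.93 for Ndufa4l2, -0.39 and -0.67 for Sdhd, and -0.80 and -0.69 for Ndufa2.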

How the data were processed

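Back skin RNA of 12 mice, 4 a group, was analysed. The authors deposited 1 FPKM value per gene and sample for 18505 gene symbols, normalized for transcript length and sequencing depth, not pooled over replicates. The study's methods name mirVana extraction, a TruSeq Stranded library with ribosomal RNA removal, Bowtie2 and eXpress, whereas the sample labels name TRIzol and a VAHTS kit and the submitters' processing notes name fastp, HISAT2, HTSeq, R 3.2.0 and the mm10 build, so which steps made the table, and how reads shared by gene copies were counted, is unsure. Counts, which the study tested, were not used here, and the depth behind a value is unknown. FPKM sums differed between groups, so fold changes depend on the scaling between samples.

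Groups were taken from the sample titles. The members and lists were chosen with earlier results of these data known. Each pair of groups was compared with limma 3.58.1 in R 4.3.3 on log2(FPKM + 0.1), with a variance trend, for the 15288 genes averaging at least 0.1 FPKM over the samples, with Benjamini-Hochberg adjustment over all of them. The constant understates the change of low genes. The method was checked on simulated data. Isoform shares were compared by exact permutation over samples. Genes were named by rule: tissue isoforms, complex II, the highest and lowest fold change and the highest level in each complex, genes past the test after BZLF, and up to 4 genes of highest level from each list. Some genes that the rule names are not reported here. Alternatives were a constant of 0.01 or 1, no filter or one at 1 FPKM, scaling by median ratios, to equal sums or by quantiles, a joint fit of all 12 samples, no variance trend, robust moderation, a replicate block, and each sample left out in turn. Python 3.11.15, pandas 2.3.3 and matplotlib 3.10.9 were used. Promoter motifs and the length split were added after the values were seen (a longer spelling of the NRF1 motif, searched first, is not reported), positions are from GENCODE M21 (GRCm38), and proteins were not analysed.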

Additional observations from a re-analysis of the deposited data

Results flagged for a closer look

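A single sample stood far from the other 3 of its group in 11 of 111 groups of 4 examined (Dixon's criterion at the 95% level), where chance gives about 1 in 20. Control replicate 2 accounted for 5 of them: the summed FPKM of 26 skeletal muscle genes, 5987 against 13255 to 14607 in the other controls, Cox7a1 at 35.5 FPKM against 82.4 to 91.0, and the muscle share of the pairs of Cox6a2 (13.6% against 28.4 to 30.5), Cox7a1 (17.2% against 33.4 to 34.1) and Cox8b (20.9% against 39.7 to 43.5). The muscle genes and the muscle isoforms were low together in this sample. Sdhc was 139 FPKM in control replicate 1, against 118 to 121 in the others.

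Among the treated samples, Cox4i2 was 5.71 FPKM in IMQ + NS replicate 1, against 7.33 to 7.65. In the IMQ + BZLF group Cox6b2 was 6.53 FPKM in replicate 4 against 4.12 to 4.27, Atp5e was 527 FPKM in replicate 3 against 464 to 469, Atp5g1 was 45.8 FPKM in replicate 2 against 50.2 to 50.9, and the Cox8b share was 11.7% in replicate 3 against 8.62 to 9.13%.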

How the results depend on the processing

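The fall of the subunit genes in IMQ + NS and IMQ + BZLF samples against control held its direction in every alternative, while its size depended on scaling. The median log2 fold change was -0.41 with equal FPKM sums and -0.40 with quantile normalization in IMQ + NS against control samples, and -0.45 and -0.43 in IMQ + BZLF against control samples. These scalings moved the median of all genes as well, from 0.05 to -0.07 with equal sums in IMQ + NS against control samples, and the members' median minus that of all genes was -0.33 as reported and under the 3 scalings. Equal sums and quantile normalization lowered the share of higher genes among all calls from 51.7% to 38.7% and 42.6% in IMQ + NS against control samples, and equal sums from 44.9% to 34.9% in IMQ + BZLF against control samples. Between the IMQ + BZLF and IMQ + NS samples, median ratio scaling and quantile normalization raised it from 19.8% to 33.8% and 32.1%. Atp5b turned to -0.017 (equal sums) and -0.22 (quantile normalization), and Cox6a1 to -0.17 (quantile normalization). With equal sums 70 members were lower in IMQ + NS against control samples, and with quantile normalization 61. Over all genes tested the lower calls were 4999 and 5046. In IMQ + NS against control samples Sdhb, Ndufv1 and Cox6b2 each passed as lower in 1 of 20 alternatives (limma adjusted p of 0.0298, 0.0353 and 0.0246 there). A limit of 2-fold left 4, 0 and 5 members lower in IMQ + NS against control, IMQ + BZLF against IMQ + NS and IMQ + BZLF against control samples.

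With 1 sample left out in turn, 0 to 2 members were higher in IMQ + NS against control samples (2 without control replicate 2), 41 to 54 were lower, and 0 to 2 were lower in IMQ + BZLF against IMQ + NS skin. The fold changes of Uqcrq (-0.094 to 0.020) and Atp5md (-0.086 to 0.017) changed sign and never passed the test. The single call of IMQ + BZLF against IMQ + NS samples, Atp5g1, gave 0 members lower with median ratio scaling, with all 12 samples in one fit and without a variance trend. The deviations of samples with the same replicate number correlated at -0.15 to 0.26, above 0.1 for replicates 3 and 4 and below it for 1 and 2 in each comparison. Since not every pair passed 0.1 and no label ties the numbers to a shared day or animal, the numbers were not taken as pairs, although the summed transcripts of tissues other than skin had the same order by number in the control and IMQ + BZLF groups. With the number as a replicate block, 38 members were lower in IMQ + NS against control samples, 49 in IMQ + BZLF against control samples, and 2 lower and 1 higher in IMQ + BZLF than in IMQ + NS skin, with Ndufa4l2 the higher one (adjusted p = 0.0158). Of all 15288 genes tested, 3703 and 3757 were lower under the block in the 2 comparisons with control, against 4142 and 4458 without it. In IMQ + BZLF against IMQ + NS samples 752 were lower and 179 higher under the block. The fall of Atp5j2 in IMQ + NS skin did not pass under the block (adjusted p = 0.0682). Causes of these changes were not tested. FPKM give no counting error for a single value.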
